A study of Mus musculus with 20 samples.

Results

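The adipocyte genes Adipoq, Plin1, Plin4, Fabp4, Cfd, Lep, Cidec, Pparg, Lpl and Lipe were taken by symbol from a table of 51789 genes measured by RNA-seq in mouse intervertebral disc, and all 10 were found. The soft disc core, the nucleus pulposus (NP), and its fibrous outer ring, the annulus fibrosus (AF), came from BL6 mice aged 24 months. From 18 months of age, for 6 months, the mice had received weekly intraperitoneal DMSO (vehicle) or MDL-800, a small molecule activator of the deacylase SIRT6, in the same volume of DMSO. All groups therefore carried DMSO, and no untreated or younger group is among the samples. Each tissue has 5 libraries under vehicle and 5 under MDL-800, 20 in all and 4 groups, and a library is called by its group and its title's number. The labels call the material primary cells, while their protocol describes dissected tissue. They do not say whether each library is 1 mouse or whether an NP and an AF library share a mouse, so p-values measure the spread between these samples.

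Fat cells store triglyceride in a single large droplet and release it on demand as fatty acids. PPARγ, the product of Pparg, works with C/EBP factors to switch on the other genes of the set during fat cell formation. Adiponectin (Adipoq), adipsin (Cfd) and leptin (Lep) are secreted by fat cells. Perilipins 1 and 4 (Plin1, Plin4) and CIDEC coat and enlarge the droplet, FABP4 carries fatty acids in the cytosol, lipoprotein lipase (Lpl) frees fatty acids from circulating lipoproteins, and hormone-sensitive lipase (Lipe) breaks down stored lipid. Several of them are also used outside fat: Lpl and Pparg are expressed in macrophages, Fabp4 in endothelium and Plin4 in muscle. The healthy disc core has no vessels and no fat, whereas the outer annulus borders vertebral bone, marrow and paraspinal tissue.

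On build GRCm38 (GENCODE M21) all 10 are protein-coding genes. The genes on the plus strand are Adipoq (chr16:23146536-23158028), Cfd (chr10:79890853-79892655), Lep (chr6:29060220-29073877), Pparg (chr6:115360951-115490399) and Lpl (chr8:68880491-68907448). Those on the minus strand are Plin1 (chr7:79720218-79732903), Plin4 (chr17:56100591-56109803), Fabp4 (chr3:10204088-10208576), Cidec (chr6:113424634-113435760) and Lipe (chr7:25379527-25398710). The table has 1 value per gene, so isoforms were not separated.

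The tissue labels were checked against marker genes. The summed level of 6 NP markers (T, Krt8, Krt18, Krt19, Cd24a and Noto) was 6605 to 9863 scaled FPKM in the NP libraries and 978 to 4173 in the AF libraries, with the highest AF value in vehicle library 9. The 8 AF and tendon markers, among them Tnmd, Scx and Col1a1, summed to 791 to 1583 in NP and 3010 to 9417 in AF. Of these 8, 7 were called higher in AF under vehicle and 6 under MDL-800, beside 33.9% and 37.2% of all genes tested. Fmod averaged 1001 in NP vehicle, most of the NP sum, and 703 in AF vehicle. FPKM is the number of fragments per length of transcript and per library depth, here divided by a factor for each library, so levels can be compared between genes. Depth, estimated from the spacing of low values, was about 12600000 to 21900000 fragments per library.

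In vehicle AF, the secreted protease Cfd and the lipid carrier Fabp4 had the highest mean levels of the set, and the hormone Lep the lowest. Cfd averaged 137 ± 39.8 scaled FPKM (SD, n = 5), Fabp4 82.9 ± 20.8, Lpl 50.6 ± 10.1 and Adipoq 44.1 ± 9.43. The ranges of neighbours in this order overlapped from Cfd down to Adipoq. Below a gap with no overlap came Plin4 at 16.2 ± 5.02, Plin1 at 14.1 ± 3.54, Cidec at 12.8 ± 2.64, Lipe at 12.3 ± 3.48 and Pparg at 8.61 ± 1.49, whose neighbours again overlapped. Lep stood lowest at 1.68 ± 0.874, apart from Pparg. In vehicle NP the order was a different one: Plin4 at 17.8 ± 2.02 stood above Lpl at 8.65 ± 1.79, and Lpl above Pparg at 4.06 ± 0.629, each without overlap. The other 7 genes averaged between 0.0324 (Lep) and 2.92 (Lipe) there, and each overlapped the next in the order.

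**Figure D1:**
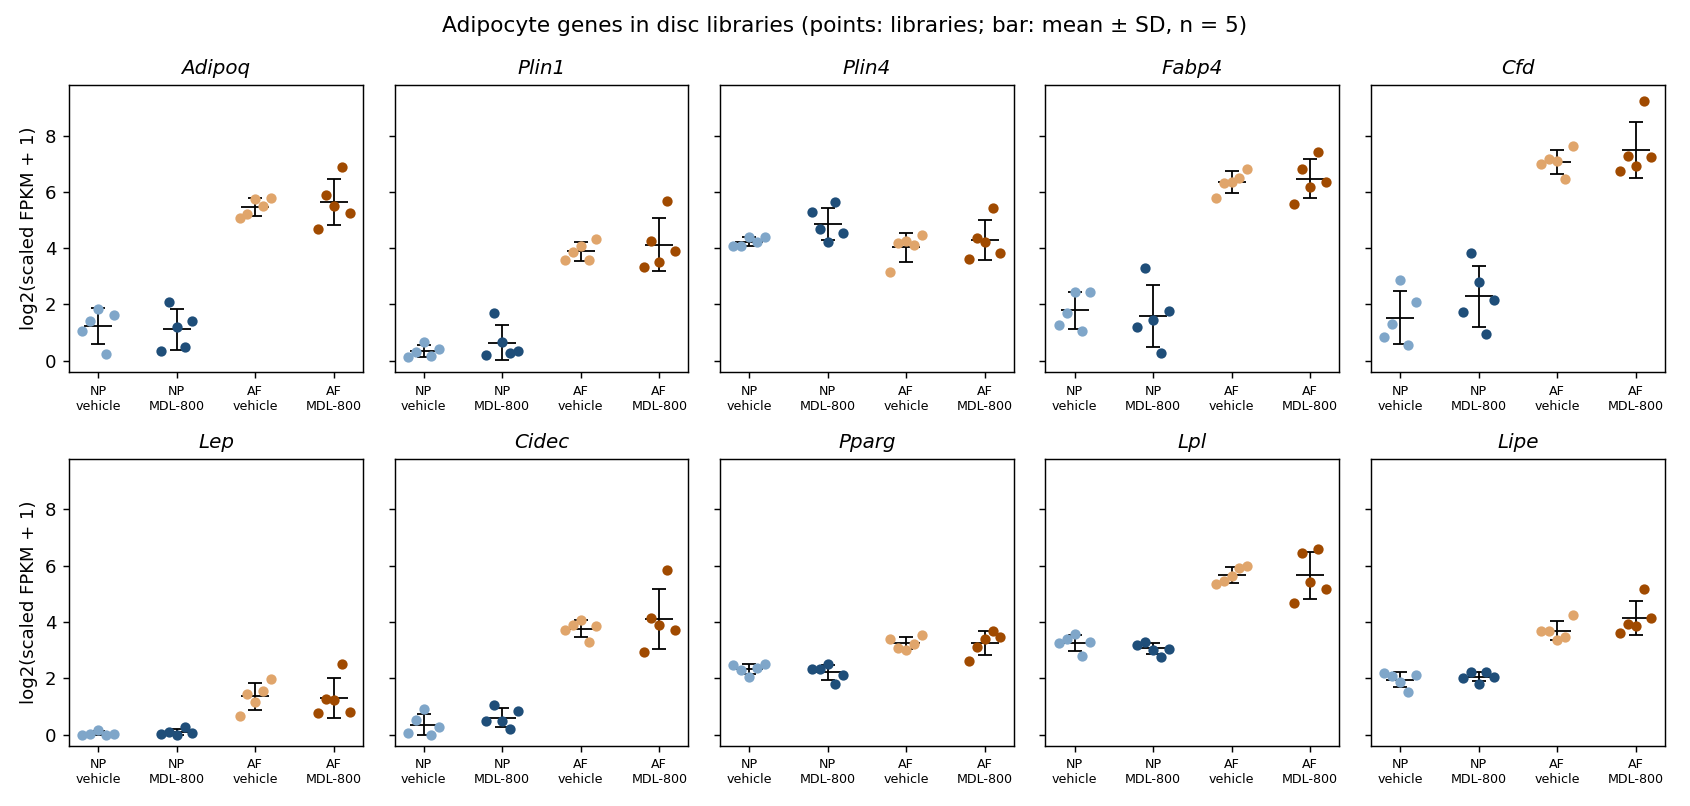
Level of each adipocyte gene in every library, as log2(scaled FPKM + 1), for NP and AF under vehicle and MDL-800. Points are libraries and bars show the mean ± SD (n = 5): 9 genes are higher in every AF library than in every NP library, while Plin4 overlaps between the tissues.

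The first comparison was between the compartments. Under vehicle, 9 of the 10 genes were called higher in AF than in NP (limma, Benjamini-Hochberg adjusted p under 0.05), and Plin4 was not called. The background is high: 33.9% of the 16383 genes tested were called higher in AF, 55.7% were called in either direction, and 41.0% did not overlap between the groups. The median log2 difference over the 10 genes was 2.92, beside 0.08 over all genes tested. Lep, Plin1 and Cidec passed the filter on low values only through their AF libraries (0, 1 and 1 of the 10 NP libraries reached 1 FPKM), so they had to differ: their differences are given with no test, and the count and median are a description. In bulk tissue, fewer cells of a type and less RNA per cell cannot be told apart.

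Among the secreted proteins, Adipoq, an insulin-sensitising hormone, measured 33.0, 36.4, 53.1, 44.2 and 53.7 scaled FPKM in AF vehicle libraries 8, 9, 10, 12 and 13. In the NP libraries of vehicle mice (1, 2, 3, 5 and 6) it measured 1.06, 1.67, 2.60, 0.178 and 2.09. Every AF library was above every NP library, by 4.23 ± 0.282 (SE) on the log2(scaled FPKM + 1) scale (limma adjusted p = 3.98e-06). Cfd, the complement protease adipsin, measured 126, 141, 135, 87.1 and 198 in AF and 0.804, 1.44, 6.35, 0.473 and 3.30 in NP, in the same library order. Its difference, 5.53 ± 0.406 on that log2 scale (limma adjusted p = 5.20e-06), was the widest of the 10 genes. Lep, the satiety hormone leptin, measured 0.586, 1.74, 1.24, 1.91 and 2.95 in AF. In NP it was listed at 0 in libraries 1 and 5 and reached 0.0206, 0.121 and 0.0197 in libraries 2, 3 and 6. At the estimated depth the NP vehicle values of Lep correspond to about 0 to 8 fragments and the AF vehicle values to about 32 to 180. Its log2 difference of 1.32 ± 0.210 is compressed by the added 1.

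The droplet proteins were not alike. Plin1, the perilipin that guards the fat cell droplet against lipases, measured 11.0, 13.7, 16.0, 10.8 and 19.2 in AF vehicle and 0.107, 0.248, 0.597, 0.128 and 0.326 in NP vehicle. The groups were far apart, with a log2 difference of 3.54 ± 0.176. Cidec, which fuses small droplets into a single large one, measured 12.0, 14.0, 15.7, 8.71 and 13.6 in AF, and 0.0322, 0.444, 0.890, 0 and 0.207 in NP, a log2 difference of 3.41 ± 0.207. Plin4, a perilipin of nascent droplets, measured 7.90, 17.2, 18.3, 16.2 and 21.3 in AF, and 15.8, 16.1, 19.9, 17.5 and 19.9 in NP. These groups overlapped, with NP inside the AF range. The difference of Plin4, AF minus NP, was −0.19 ± 0.218 (95% interval −0.67 to 0.29, limma adjusted p = 0.491), and without AF vehicle library 8, its lowest value, it was 0.03.

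The genes of lipid handling were also measured in NP. The carrier Fabp4 reached 1 FPKM in 9 of the 10 NP libraries, and the lipases Lpl and Lipe in all 10. Fabp4 measured 53.7, 79.2, 81.2, 88.9 and 112 in AF vehicle and 1.39, 2.26, 4.50, 1.07 and 4.48 in NP vehicle, a log2 difference of 4.57 ± 0.300 (limma adjusted p = 3.98e-06). Lpl measured 39.4, 43.2, 48.4, 59.6 and 62.5 in AF, and 8.51, 9.42, 10.7, 5.85 and 8.71 in NP, a log2 difference of 2.42 ± 0.170 (limma adjusted p = 4.63e-06). Lipe measured 11.9, 11.9, 9.29, 10.0 and 18.1 in AF, and 3.59, 3.26, 2.61, 1.85 and 3.30 in NP, a log2 difference of 1.74 ± 0.190 (limma adjusted p = 3.63e-05). For these 3 genes no NP library reached the lowest AF library.

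Pparg, the regulator of the set, measured 9.52, 7.48, 7.10, 8.29 and 10.7 in AF vehicle, and 4.53, 3.85, 3.09, 4.18 and 4.65 in NP vehicle. The groups did not overlap, and the log2 difference was 0.92 ± 0.139 (limma adjusted p = 2.57e-04), the smallest of the 9 called. Two-sided exact permutation tests on single genes gave p = 0.00794 for each of the 6 genes not fixed by the filter (Adipoq, Cfd, Fabp4, Lpl, Lipe and Pparg). This is the smallest value that splits of 10 libraries into 5 and 5 allow. Adjusted over 40 such tests, the exact p was 0.0176. The 40 tests include those of Lep, Plin1 and Cidec, fixed by the filter, which lower the adjusted value. The exact p for Plin4 was 0.627.

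The same comparison under MDL-800 called the same 9 genes higher in AF, with 37.2% of all genes called higher, 62.8% called either way and 49.1% not overlapping. The log2 differences were 4.53 ± 0.427 for Adipoq, 5.18 ± 0.575 for Cfd, 1.22 ± 0.292 for Lep, 3.49 ± 0.445 for Plin1 and 3.50 ± 0.444 for Cidec. Fabp4 differed by 4.87 ± 0.508, Lpl by 2.60 ± 0.338, Lipe by 2.09 ± 0.256 and Pparg by 1.04 ± 0.205. Apart from Lep, Plin1 and Cidec, the limma adjusted p-values ran from 8.43e-06 (Adipoq) to 0.00116 (Pparg). All 9 again had every AF library above every NP library. Plin4 was at −0.57 ± 0.357 (95% interval −1.36 to 0.22, limma adjusted p = 0.186). Without AF MDL-800 library 29, its highest AF value, Plin4 was called lower in AF than in NP, at −0.85 (limma adjusted p = 0.0267), and 10 of 10 genes were then called. Quantile normalization moved the median over all genes from 0.08 to −0.20 (vehicle) and −0.21 (MDL-800). It turned the split of calls from 5550 higher and 3577 lower to 3923 and 6474 under vehicle, and from 6102 and 4188 to 4290 and 6919 under MDL-800. The direction of each of the 9 genes stayed the same, while Lep under MDL-800 was no longer called (0.68, limma adjusted p = 0.0697).

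**Figure D2:**
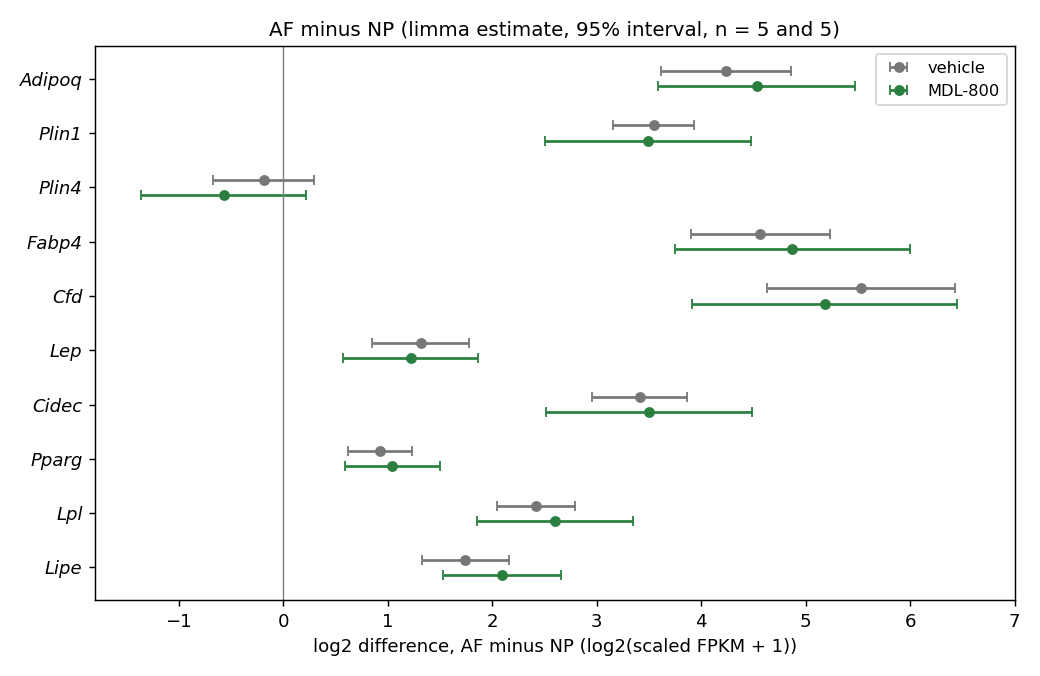
AF minus NP for each adipocyte gene on the log2(scaled FPKM + 1) scale, under vehicle (grey) and MDL-800 (green), as limma estimates with 95% intervals (n = 5 and 5). The estimates of 9 genes lie above 0 in both, from 0.92 for Pparg to 5.53 for Cfd, and both intervals of Plin4 include 0.

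The mean NP level of each gene was then taken as a percentage of its mean AF level, so a low value can reflect a high AF level. It does not order the genes by level in NP: under MDL-800 Cfd averaged 5.18 scaled FPKM there, Pparg 3.70 and Lipe 3.18. Under vehicle, Cfd stood at 1.80%, Lep at 1.92%, Plin1 at 1.99%, Cidec at 2.46%, Fabp4 at 3.31% and Adipoq at 3.45%. Under MDL-800 these 6 genes lay between 2.31% (Cfd) and 3.80% (Lep). The SD over NP libraries was as wide as 3.01 percentage points under vehicle and 4.81 under MDL-800, both for Lep. The order among the 6 is therefore not established. Lpl stood at 17.1% under vehicle and 13.1% under MDL-800, Lipe at 23.8% and 17.5%, and Pparg at 47.1% and 41.9%. Plin4 stood at 110% and 145%, above its AF mean. Its single NP libraries lay on both sides of that mean, from 97.3% to 123% under vehicle and from 84.9% to 233% under MDL-800.

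Markers of other cells around the disc had NP levels of the same order. The median marker under vehicle was at 2.49% of its AF level for Schwann (nerve sheath) cells, 4.07% for bone, 4.53% for endothelium and 5.71% for macrophages. It was at 7.50% for red cells, 8.83% for neutrophils, 9.07% for skeletal muscle and 9.56% for marrow stroma. Under MDL-800 the medians of these lists ran from 3.14% (bone) to 7.57% (marrow stroma), with muscle at 3.48% and Schwann cells at 4.75%. No list was free of RNA in NP: the summed level of 8 muscle markers there was 10.5 to 1103 scaled FPKM, against 804 to 8663 in AF. The summed level of 8 endothelial markers was 13.1 to 28.7 in NP and 71.7 to 141.6 in AF. In NP vehicle most of it was Egfl7 (mean 12.1), and 5 of the 8 markers were under 1 in every library. The sum of 8 macrophage markers was 44.8 to 90.4 in NP and 218 to 441 in AF. Its NP vehicle part was mostly Csf1r (mean 27.5) and Cd68 (16.5). That of 7 neutrophil markers was 180 to 2972 in NP and 5826 to 31504 in AF. Of all markers in these lists, 1, the macrophage receptor Marco, was listed at 0 in every library of NP vehicle. Their part in the tissue difference was not tested.

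**Figure D3:**
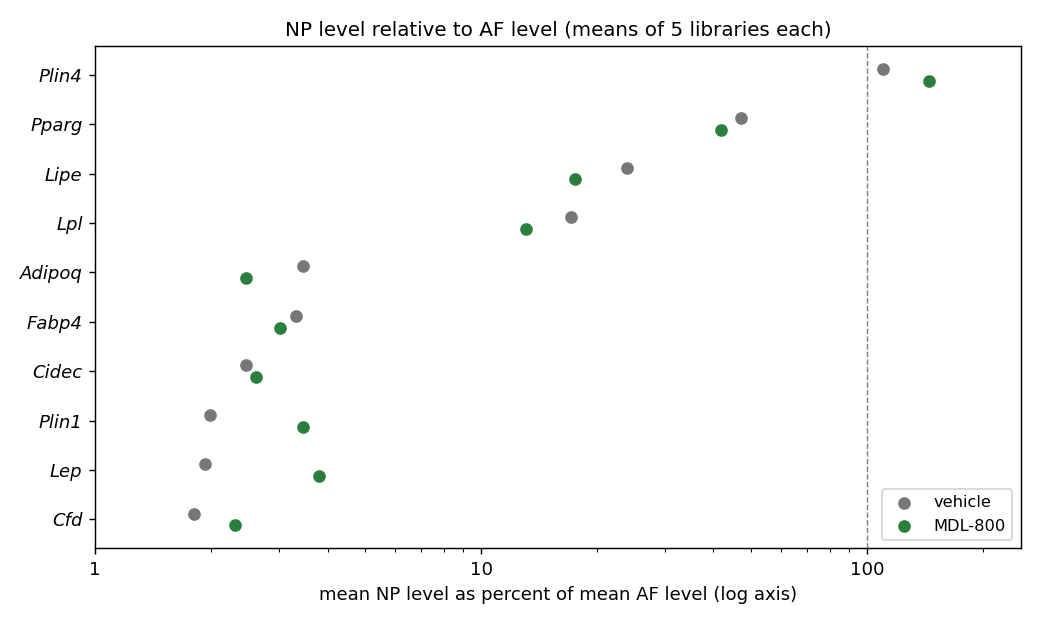
Mean NP level of each adipocyte gene as a percentage of its mean AF level (log axis, means of 5 libraries each), under vehicle (grey) and MDL-800 (green). The lower 6 genes lie below 4%, Lpl, Lipe and Pparg lie between 13.1% and 47.1%, and Plin4 lies above the dashed line at 100%.

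Within NP, the low values were not spread evenly over libraries. NP MDL-800 library 18 held the highest of the 10 NP values for Adipoq (3.28), Plin1 (2.28), Fabp4 (8.86), Cfd (13.3) and Cidec (1.08), and was among the top 3 for 9 of the 10 genes. NP vehicle library 3 was among the top 3 for 7 genes, with Cfd at 6.35 and Fabp4 at 4.50. Library 18 had a summed red cell marker level of 162 and a neutrophil marker level of 1556. Both sums were higher in MDL-800 library 22 (208 and 1575), which was among the top 3 for 1 gene, and in vehicle library 6 (177 and 2972), among the top 3 for 3 genes. Library 3 had the highest muscle marker sum in NP, 1103. The summed level of Schwann cell (nerve sheath) markers was highest in NP in library 18 (27.9), then in library 3 (23.7). It was 10.9 to 14.4 in the other NP libraries. Of the 6 Schwann cell markers, 3 stayed under 1 in every NP library of MDL-800 mice, as did 2 for vehicle mice. A high sum therefore rests on part of that list and does not show that all 6 markers were high. Library 18 had sums of 60.8 for marrow stroma and 79.1 for macrophages, below vehicle library 6 (66.7 and 90.4). The endothelial sums of libraries 18 and 3 were 17.1 and 14.0, inside the NP range. The part of these tissues in the NP values was not tested.

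The genes around the set were read from 7 lists of related function. Of the 58 genes tested in them, 13 passed the filter on low values only with their AF libraries, which favours a higher level in AF. They were Retn, Adig, Thrsp, Aqp7, Sncg, Pck1, Cidea, Fitm1, Gpihbp1, Cebpa, Ebf2, Dio2 and Ebf3. Cebpa reached 1 FPKM in 4 NP libraries, Fitm1 in 2, Gpihbp1 in 1 and the others in 0. For all 13 genes levels and differences are given with no test, and the counts and medians of their lists are descriptions. Of 12 further fat cell genes tested, 8 were called higher in AF and 3 lower, in both treatments. Of all genes, 33.9% were called higher and 21.8% lower under vehicle, and 37.2% and 25.6% under MDL-800. The median log2 difference of the list was 1.90 under vehicle and 1.90 under MDL-800. Sncg, a synuclein of fat and nerve, averaged 14.4 ± 8.56 scaled FPKM in AF vehicle and 0.401 ± 0.340 in NP vehicle, a log2 difference of 3.32 ± 0.332. Retn, the mouse fat cell hormone resistin, averaged 10.1 ± 3.79 and 0.207 ± 0.142, a log2 difference of 3.15 ± 0.205. Under MDL-800 the differences were 3.88 and 3.38. The 3 lower genes, named after their values were seen, were Car3, Adrb3 and Pde3b. Car3, carbonic anhydrase 3, which is abundant in fat and muscle, averaged 20344 ± 2264 in NP vehicle and 4794 ± 3739 in AF vehicle, a log2 difference, AF minus NP, of −2.42 ± 0.515 (limma adjusted p = 0.00223).

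Droplet and lipolysis genes other than the set went both ways. Of 11 tested, 5 were called higher in AF and 2 lower under vehicle, and 5 and 4 under MDL-800, with medians of 0.18 and −0.06. The shares over all genes were 33.9% and 21.8% under vehicle, and 37.2% and 25.6% under MDL-800. Fitm1, a droplet protein best known from skeletal muscle, averaged 10.6 ± 5.83 in AF vehicle and 1.02 ± 1.85 in NP vehicle (log2 difference 2.66 ± 0.523). G0s2, an inhibitor of the lipase ATGL, averaged 10.2 ± 2.06 and 3.89 ± 0.939 (1.20 ± 0.168, limma adjusted p = 1.59e-04). Under MDL-800 the second largest difference was that of Abhd5, the co-activator of ATGL, at 29.9 ± 7.74 in AF and 11.1 ± 0.905 in NP (1.32 ± 0.151, limma adjusted p = 2.93e-05). Plin2, the perilipin found in most cell types and named after its values were seen, was at 43.3 ± 6.19 in AF vehicle and 48.1 ± 6.25 in NP vehicle and was not called (log2 difference −0.15, limma adjusted p = 0.326).

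Of 12 genes of lipid uptake and storage, 6 were called higher in AF and 2 lower in both treatments, with medians of 0.59 and 0.56. The shares over all genes were 33.9% and 21.8% under vehicle, and 37.2% and 25.6% under MDL-800. Gpihbp1, the capillary anchor on which lipoprotein lipase works, averaged 10.8 ± 2.89 in AF vehicle and 0.442 ± 0.415 in NP vehicle (log2 difference 3.04 ± 0.230). Angptl4, a secreted inhibitor of that lipase, averaged 7.04 ± 4.71 and 1.18 ± 0.412 (1.75 ± 0.302, limma adjusted p = 5.98e-04). Lpl RNA was thus measured in NP at 8.65 ± 1.79, where its anchor was under 1 FPKM on average.

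Of 10 adipogenic factors tested, 5 were called higher in AF and 3 lower under vehicle, and 4 and 4 under MDL-800, with medians of 0.61 and 0.29. The shares over all genes were 33.9% and 21.8% under vehicle, and 37.2% and 25.6% under MDL-800. Cebpa, the C/EBP factor that acts with PPARγ, averaged 15.8 ± 2.88 in AF vehicle and 1.18 ± 0.695 in NP vehicle (log2 difference 2.99 ± 0.211). Ebf2, a factor of fat precursors and of marrow stroma, averaged 6.08 ± 2.58 and 0.0936 ± 0.0751 (2.59 ± 0.271). Under MDL-800 the differences were 3.16 for Cebpa and 2.38 for Ebf2. Other factors had the higher mean in NP, among them Srebf1 and Klf15, named after their values were seen. Srebf1 averaged 60.0 ± 9.65 in AF vehicle and 136 ± 36.2 in NP vehicle, and Klf15 5.65 ± 0.942 and 12.7 ± 1.46. Rxra, the partner of PPARγ on DNA and named after its values were seen, was at 24.2 ± 4.08 in AF vehicle and 23.8 ± 4.83 in NP vehicle and was not called (limma adjusted p = 0.886).

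Receptors of adipokines were present in both tissues. Adipor2, an adiponectin receptor, averaged 30.5 ± 3.66 in AF vehicle and 13.5 ± 1.36 in NP vehicle (log2 difference 1.11 ± 0.107, limma adjusted p = 1.78e-05) and was the only one of 4 receptor genes called under vehicle. Of all genes, 55.7% were called in either direction under vehicle. Under MDL-800, 2 of the 4 receptor genes were called higher and 1 lower, beside 37.2% and 25.6% of all genes. Among them was Lepr, the leptin receptor, at 32.4 ± 7.29 in AF and 22.6 ± 2.58 in NP (0.48 ± 0.156, limma adjusted p = 0.0204). Lepr was therefore well measured in NP, where Lep was at or near 0.

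Of 6 genes of heat-producing fat, 3 passed the filter and 2 were called higher in AF in both treatments, with medians of 2.14 and 2.17. The share of all genes called higher was 33.9% under vehicle and 37.2% under MDL-800. Dio2, which activates thyroid hormone, averaged 6.11 ± 4.22 in AF vehicle and 0.138 ± 0.0829 in NP vehicle (2.48 ± 0.301). Cox7a1, a respiratory subunit shared with muscle, averaged 50.7 ± 48.4 and 8.93 ± 8.22 (2.14 ± 0.742, limma adjusted p = 0.0299). Ucp1, the defining uncoupling protein of that fat, did not pass the filter, at 0.578 ± 0.707 in AF vehicle and listed at 0 in all NP vehicle libraries. All 6 genes of marrow stroma were called higher in AF in both treatments, with medians of 2.64 and 2.91. Cxcl12, the chemokine that marrow stromal cells share with fat precursors, averaged 311 ± 62.3 in AF vehicle and 28.4 ± 13.3 in NP vehicle (3.52 ± 0.303, limma adjusted p = 1.04e-05), and Vcam1 averaged 30.0 ± 12.6 and 2.61 ± 2.66 (3.26 ± 0.411, limma adjusted p = 8.46e-05).

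Because the mean level of Cebpa was also higher in AF, the stretches just before the genes' start sites were searched for the letters that C/EBP factors and PPARγ are known to bind. RefSeq sequence on build GRCm38.p6 was at hand for 8 of the 10 genes, with 12 windows of 250 bases before a start site, and Fabp4 and Lpl have no entry. The C/EBP letters TTGCNNAA, on either strand, were present in 4 windows, of Plin1, Lep, Cidec and Pparg, and in 9.56% of 32851 such windows of all genes. The PPARγ element is a direct repeat of AGGTCA with 1 base of any kind between the copies. It was in 0 of the 12 windows and in 0.0335% of all windows, and the same repeat with any base at the fourth letter of each copy was in 0 and in 0.338%. A single AGGTCA, which is part of that repeat, was in 2 windows, both of Pparg, and in 14.0% of all. Of these windows, 3 with a C/EBP match are given here with a window of Adipoq, which has none although its tissue difference was among the widest. They read 5′ to 3′ toward the start site, and capitals mark the C/EBP match.
Adipoq (chr16:23146286-23146535, plus strand): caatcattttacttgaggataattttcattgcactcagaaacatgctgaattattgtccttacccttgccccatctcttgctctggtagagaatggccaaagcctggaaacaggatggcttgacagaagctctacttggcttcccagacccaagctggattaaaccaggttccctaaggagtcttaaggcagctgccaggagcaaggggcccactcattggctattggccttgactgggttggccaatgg
Lep (chr6:29059971-29060220, plus strand): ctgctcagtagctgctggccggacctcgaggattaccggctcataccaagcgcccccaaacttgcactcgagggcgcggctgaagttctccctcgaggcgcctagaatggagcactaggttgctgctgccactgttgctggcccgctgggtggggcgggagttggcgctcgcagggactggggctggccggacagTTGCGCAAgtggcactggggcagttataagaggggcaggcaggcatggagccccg
Cidec, start site 2 (chr6:113434765-113435014, minus strand): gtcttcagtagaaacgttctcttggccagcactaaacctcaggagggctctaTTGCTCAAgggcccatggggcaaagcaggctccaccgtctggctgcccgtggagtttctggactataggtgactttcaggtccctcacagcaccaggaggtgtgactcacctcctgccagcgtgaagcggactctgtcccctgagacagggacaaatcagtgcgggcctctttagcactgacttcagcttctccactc
Pparg, start site 3 (chr6:115421816-115422065, plus strand): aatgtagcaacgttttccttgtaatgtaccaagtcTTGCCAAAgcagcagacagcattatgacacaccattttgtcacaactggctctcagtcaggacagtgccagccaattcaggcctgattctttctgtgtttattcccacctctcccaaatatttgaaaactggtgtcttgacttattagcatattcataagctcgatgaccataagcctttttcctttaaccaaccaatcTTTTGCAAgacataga
In Lep the match TTGCGCAA lies 55 to 48 bases before the start, in Cidec TTGCTCAA lies 198 to 191 bases before it, and in Pparg TTGCCAAA lies 215 to 208 and TTTTGCAA, on the other strand, 16 to 9 bases before it. Plin1 has TTGCCTAA and TTGCCCAA 187 to 180 and 58 to 51 bases before its start. The genes with a match include those with wide and narrow tissue differences, from 0.92 (Pparg) to 3.54 (Plin1), and a match in these letters is a description of the sequence only.

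The study's main question was what long-term MDL-800 changes in each compartment. In NP, 0 of the 10 genes were called between MDL-800 and vehicle by limma, where 0.250% of all genes were called (41 of 16383). At an unadjusted p under 0.05 the count was 1 of 10, beside 14.1% of all genes. Of the 10 estimates, 6 were above 0, against 42.6% of all genes, and the median was 0.07 beside −0.03.

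Plin4 was the gene of that count. It measured 15.8, 16.1, 19.9, 17.5 and 19.9 scaled FPKM in the vehicle libraries 1, 2, 3, 5 and 6, and 37.6, 24.4, 17.6, 48.4 and 22.1 in NP MDL-800 libraries 15, 18, 19, 20 and 22. Of the 5 MDL-800 libraries, 4 were above all vehicle libraries, and library 19 lay among them. The log2 difference was 0.63 ± 0.236 (95% interval 0.11 to 1.16, unadjusted p = 0.0219, limma adjusted p = 0.255). A two-sided exact permutation test gave p = 0.0317, or 0.0668 after adjustment over 40 tests. Those tests include the ones fixed by the filter, which lower the adjusted value. Plin4 transcripts are rich in G and C (55.9%, beside a median of 49.3%). In the set Cfd (58.4%), Plin1 (56.9%) and Cidec (56.5%) are richer, and Lipe (55.6%) is close. The dependence of log2 levels on GC content differed between the NP groups: the slope per 10 percentage points was −0.28 to −0.01 in vehicle libraries and 0.02 to 0.09 in MDL-800 libraries. With a linear GC trend removed from each library, an alternative chosen after seeing the data, the difference of Plin4 was 0.51 (limma adjusted p = 0.429).

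The other 9 genes had intervals that included 0 in NP. Cfd had the highest estimate of the set, 0.76 (95% interval −0.49 to 2.01), from means of 2.47 under vehicle and 5.18 under MDL-800. Plin1 was at 0.30 (−0.29 to 0.88). Adipoq was at −0.12 (−0.96 to 0.71), Fabp4 at −0.19 (−1.30 to 0.93) and Cidec at 0.25 (−0.21 to 0.71). The better measured genes were held more tightly: Lpl at −0.19 (−0.52 to 0.14), Pparg at −0.12 (−0.45 to 0.21) and Lipe at 0.10 (−0.22 to 0.43). Lep was at 0.05 (−0.12 to 0.21), with both groups near 0. Limma adjusted p-values of these 9 genes lay between 0.593 (Cfd) and 0.924 (Adipoq).

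None of the genes of the 7 related lists was called in NP either. By the smallest p in its list, Klf15, a glucocorticoid-responsive factor of fat cells, measured 22.5 ± 5.46 under MDL-800 and 12.7 ± 1.46 under vehicle (log2 difference 0.75 ± 0.153, limma adjusted p = 0.0740). Plin3, the most widely expressed perilipin beside Plin2, measured 43.2 ± 4.08 and 30.8 ± 2.87 (0.48 ± 0.0859, limma adjusted p = 0.0563). Slc27a1, a fatty acid transporter, measured 26.4 ± 1.77 and 19.2 ± 3.24 (0.46 ± 0.113, limma adjusted p = 0.101). These 3 genes did not overlap between the groups, nor did 738 of the 16383 genes, or 4.50%. The 3 were picked by the smallest p, so they cannot be compared with that share. Adrb3 (0.48, limma adjusted p = 0.413), Lepr (−0.38, limma adjusted p = 0.349), Cox8b (0.34, limma adjusted p = 0.501) and Vcam1 (−0.48, limma adjusted p = 0.639) overlapped.

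In AF, 0 of the 10 genes were called with MDL-800 by limma, as were 0% of all genes, and none reached an unadjusted p under 0.05, beside 1.65% of all genes. Two-sided exact permutation tests gave p between 0.183 (Lipe) and 0.992 (Pparg). Of the 10 estimates, 8 were above 0, against 52.6% of all genes, with a median of 0.21 beside 0.01. The highest were Lipe at 0.45 (95% interval −0.18 to 1.08), Cfd at 0.41 (−0.54 to 1.36) and Cidec at 0.34 (−0.64 to 1.32). Plin4 was at 0.25 (−0.52 to 1.02), Plin1 at 0.24 (−0.64 to 1.12), Adipoq at 0.18 (−0.60 to 0.95) and Fabp4 at 0.12 (−0.58 to 0.82). Pparg was at 0.00 (−0.44 to 0.44), Lpl at −0.01 (−0.79 to 0.76) and Lep at −0.05 (−0.82 to 0.72). The limma adjusted p was 1 for all 10.

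The positive estimates in AF rested on a single library. AF MDL-800 library 29 was the highest of the 10 AF libraries for all 10 genes. Against the median of the other 9 AF libraries it stood 4.39 times as high for Cfd, 4.15 for Cidec, 3.67 for Plin1, 3.59 for Lep and 2.96 for Lipe. The ratio was 2.65 for Adipoq, 2.43 for Plin4, 2.20 for Lpl, 2.11 for Fabp4 and 1.43 for Pparg. Without it, 1 of the 10 estimates, Lipe at 0.19, was above 0, the others lay between −0.35 (Lep) and −0.02 (Cfd), and the median was −0.11. Adipoq was then at −0.13, Plin1 at −0.15, Fabp4 at −0.12, Cidec at −0.10, Pparg at −0.10 and Plin4 at −0.03.

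The same library had the highest muscle marker sum of AF, 8663 scaled FPKM, beside a median of 1240 in AF MDL-800 and 7926 in AF vehicle library 12. Against the median of the other 9 AF libraries, the adipocyte genes in library 12 stood between 0.617 (Cfd) and 1.46 (Lep) times as high, with 4 of the 10 above 1. In library 29 the summed bone marker level was 2070, the endothelial level 137 and the neutrophil level 7551, the last below the group median of 13197. The part of these tissues in the values of library 29 was not tested. At the other end, AF MDL-800 library 25 was the lowest AF library for Adipoq (24.6), Plin1 (8.95), Fabp4 (47.1), Cidec (6.60), Pparg (5.10) and Lpl (24.5).

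**Figure D4:**
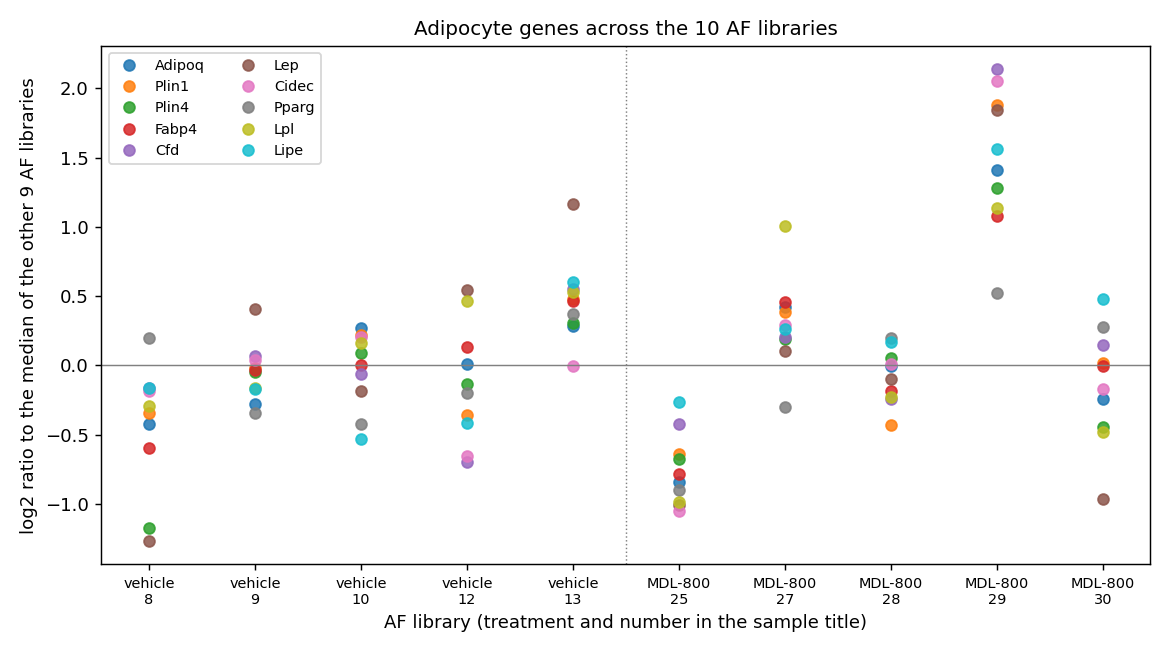
Level of each adipocyte gene in each AF library relative to the median of the other 9 AF libraries (log2 ratio of scaled FPKM), with vehicle libraries left and MDL-800 libraries right of the dotted line. All 10 genes are highest in MDL-800 library 29, and 6 are lowest in MDL-800 library 25.

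Of the related genes in AF, none was called. Fabp5, the epidermal fatty acid binding protein, had the smallest p of them, at 19.9 ± 3.54 under MDL-800 and 27.8 ± 4.04 under vehicle (log2 difference −0.46 ± 0.147, unadjusted p = 0.00960, limma adjusted p = 1). The first gene of each other list was Pck1 (0.55), Hilpda (−0.18), Klf15 (0.24), Lepr (−0.31), Cox7a1 (−0.54) and Grem1 (0.49), each with a limma adjusted p of 1.

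**Figure D5:**
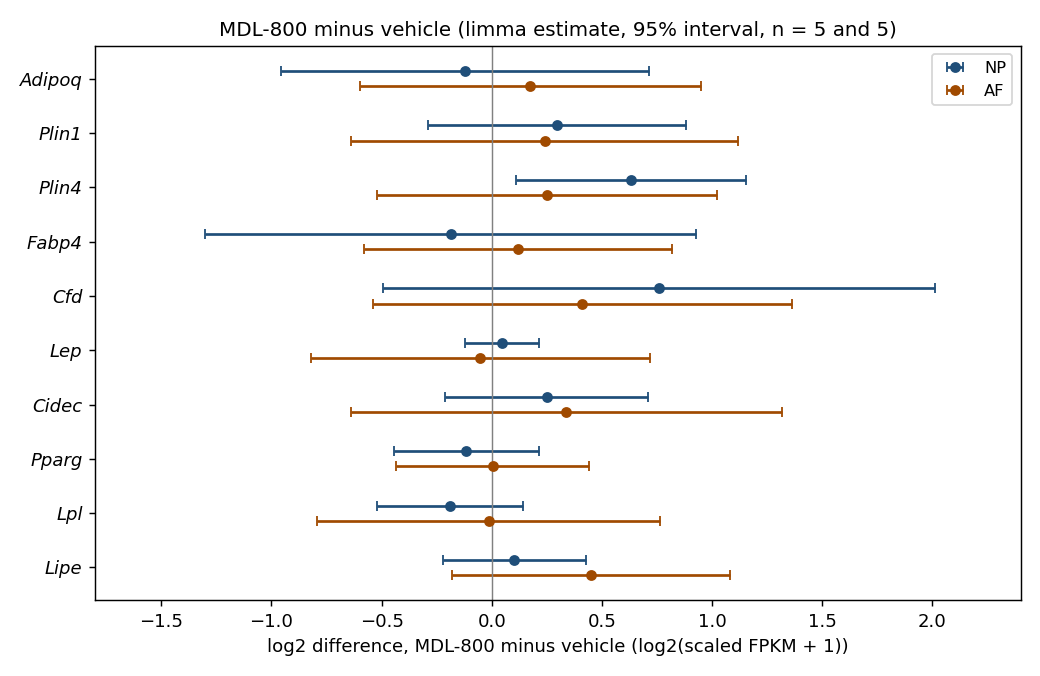
MDL-800 minus vehicle for each adipocyte gene on the log2(scaled FPKM + 1) scale, in NP (blue) and AF (brown), as limma estimates with 95% intervals (n = 5 and 5). The interval of Plin4 in NP, 0.11 to 1.16, is the only one that does not include 0.

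Whether MDL-800 acted differently in the compartments was tested as an interaction in a fit of all 4 groups. By limma, 0 of the 10 genes and 0% of all genes were called, and 0 of the 10 reached an unadjusted p under 0.05, beside 3.73% of all genes. The estimates, the AF effect minus the NP effect, lay between −0.38 ± 0.442 (Plin4) and 0.35 ± 0.330 (Lipe), each with a limma adjusted p of 0.9997. The 95% interval of Plin4 was −1.31 to 0.54.

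The genes of the set varied together over the 10 AF libraries, which is a relation across libraries of both treatments. Against Adipoq on the log2 scale, Pearson's r was 0.94 for Fabp4 (Spearman's rho 0.94), 0.92 for Plin1 (0.81), 0.91 for Cidec (0.73), 0.91 for Plin4 (0.92), 0.89 for Lpl (0.93), 0.84 for Lep (0.75) and 0.83 for Cfd (0.65). It was 0.74 for Lipe (rho 0.47) and 0.62 for Pparg (rho 0.47). Of these, 8 of 9 had a permutation p, adjusted over the 9 relations, under 0.05 for Pearson's r, from 5.4e-04 for Fabp4 to 0.0337 for Lipe, and Pparg did not (permutation p = 0.0592). Of all 16382 other genes tested, 254, or 1.55%, had an r with Adipoq at least as high as that of Lipe, the lowest of the 8, while Fabp4 was at rank 5 and Pparg at rank 763 of all genes by r. For Spearman's rho the adjusted permutation p was 0.0622 for Cfd and 0.180 for Lipe and Pparg. With r taken around each treatment's own mean the values were close to these, from 0.63 (Pparg) to 0.94 (Fabp4).

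Several of these relations rested on the 2 libraries farthest from the median of Adipoq, 25 and 29. Without both, r was 0.81 for Lpl, 0.80 for Fabp4, 0.79 for Plin4 and 0.68 for Plin1, but 0.56 for Lep, 0.47 for Cidec, 0.32 for Cfd, 0.10 for Lipe and −0.24 for Pparg. Without library 29 alone, 5 of 9 genes kept an adjusted permutation p under 0.05 (Fabp4, Lpl, Plin1, Plin4 and Cidec), and 1.78% of all other genes had an r at least as high as that of Cidec, the lowest of the 5. By r without that library, Cfd was at rank 2662 and Lipe at rank 5469 of all genes. Against the mean level of 9 lists of other cells, r with Adipoq was 0.71 for muscle (permutation p = 0.0126, adjusted 0.114), 0.58 for macrophages, −0.56 for red cells, 0.49 for endothelium, −0.41 for NP markers and −0.35 for neutrophils, and no list had an adjusted permutation p under 0.05.

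Outside the set, the 8 genes whose levels were most like Adipoq over the 10 AF libraries were named by r, as a description. They were Glb1l2 and Hmcn2 (0.96 each), Nnat and Acvr1c (0.95 each), Fmo1, Aoc3 and Lmod1 (0.93 each) and Pnpla2 (0.92). Acvr1c encodes the activin receptor ALK7, Aoc3 a surface amine oxidase of fat and smooth muscle cells, and Pnpla2 the lipase ATGL, the first step of fat breakdown. Without library 29, Hmcn2 had the highest r of all genes, 0.97, and Pnpla2 was at 0.79. Most of the 8 had a lower mean in NP vehicle than in AF vehicle: Hmcn2 averaged 0.161 in NP and 4.52 in AF, Nnat 0.0873 and 3.22, Aoc3 0.171 and 5.51, Lmod1 0.0668 and 0.827, Fmo1 1.84 and 19.3, and Glb1l2 1.22 and 3.97. The means of Acvr1c, at 1.39 in NP and 1.34 in AF, and of Pnpla2, at 45.2 and 51.3, were closer to each other.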

How the data were processed

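Total RNA of NP and AF was sequenced from stranded libraries after ribosomal depletion, per the labels' protocols. The authors deposited FPKM values for 51789 genes in 20 columns, given to 2 decimals. Alignment used STAR 2.7.11b on mm10, per the submitters' processing notes; the counting program and annotation are not given in the sources used here. Count models were not applied to FPKM. Deposited FPKM were divided by each library's median ratio to the geometric mean over 11308 genes that reached 1 FPKM everywhere (factors 0.933 to 1.06). The 16383 genes reaching 1 FPKM in 5 libraries or more were tested. Differences of log2(scaled FPKM + 1), which understates changes of low genes, were tested two-sided with limma 3.58.1 in R 4.3.3 (eBayes with trend, only the 2 groups compared, Benjamini-Hochberg adjustment over all genes tested, threshold 0.05), and the interaction in a fit of all 4 groups. Single genes were also tested by exact permutation, and correlations by 100000 permutations (Python 3.11.15, scipy 1.17.1). The limma step was tested on simulated data with 200 of 16383 genes changed. A change of 1 log2 unit was found in 59.0% of them between tissues and 78.0% for MDL-800 in NP. It was found in 61.0% for MDL-800 in AF and 54.0% for the interaction, so a change of that size can be missed. A change of 2 was found in 87.5% (interaction) to 93.5% (NP), with 8 to 19 false calls.

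The genes of the set and the related lists were chosen with earlier results of these data known. Genes outside the set were named by rule: in each tissue comparison the 2 called genes of each list with the largest difference, in each treatment comparison the gene with the smallest p, and the 8 genes most correlated with Adipoq. One gene, Trarg1, was not matched. Depth was estimated from 6734 single-exon genes, whose low values lie on steps of 1 fragment (79.8% to 85.0% within 0.15 of a whole number). Such fragment numbers carry that error, and 0 can also come from how reads were assigned. Gene models were GENCODE M21 (GRCm38), which holds 51596 of the gene identifiers. Alternatives were other pseudocounts, filters, scalings, fits and leaving out each library; removal of a GC trend, a block and the correlations without library 25 or 29 were chosen after seeing the data.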

Additional observations from a re-analysis of the deposited data

Results flagged for a closer look

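In 4 of the 40 groups of 5 libraries (10 genes in 4 groups), the most extreme library stood apart from the other 4 by a gap that is large for the group's range; chance alone gives this in about 1 of 20 groups. Cfd was 593 scaled FPKM in AF MDL-800 library 29, where the other 4 libraries lay between 105 and 155. Lep was 4.71 in the same library, where the others lay between 0.699 and 1.41. Plin4 was 7.90 in AF vehicle library 8, where the others lay between 16.2 and 21.3. Lep was 0.121 in NP vehicle library 3, where the others lay between 0 and 0.0206, about 8 fragments at the estimated depth.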

How the results depend on the processing

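The number of genes called between MDL-800 and vehicle in NP, 41 in the reported fit, was 7 with no filter, 81 with a filter at 5 FPKM, 18 on FPKM as deposited, 21 on TPM, 70 after quantile normalization, 4 with all 4 groups in the fit and 18 with no trend in eBayes; leaving out 1 library gave 2 to 189. None of the 10 genes was called there under any of these. Leaving out 1 library gave 0 or 1 genes called in AF (1 without AF MDL-800 library 25 or 29) and 0 or 1 for the interaction (1 without AF MDL-800 library 30). With MDL-800, 8 members were called between the tissues after quantile normalization, beside 4290 genes higher in AF and 6919 lower of all 16383. Leaving out 1 library gave 9 to 10 members called, beside 9572 to 10283 of all genes. Without library 29 or 25, 5 and 7 members correlated with Adipoq. The column names hold a number of unstated meaning. Under vehicle the NP and AF libraries carry the same numbers (8, 9, 10, 12 and 13), and under MDL-800 both tissues have 36, 37 and 39. Deviations of same-numbered libraries correlated between −0.18 and 0.29, which cannot show whether they share a mouse. The number was not taken as a pairing because its meaning is not stated. With this number as a replicate block, added after seeing the data, 9 members were called in each treatment. They include Lep, Plin1 and Cidec, fixed by the filter. Of all 16383 genes, 5406 were then called higher in AF and 3377 lower under vehicle, and 4867 and 2990 under MDL-800, so the count is a description.

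Uncalled estimates changed sign as follows, and the cause was not tested. With the GC trend removed, Lipe in NP was −0.0195, Pparg and Lpl in AF −0.00103 and 0.0169, and the Plin1 interaction 0.0499. In AF, Pparg was -3.71e-05 with a pseudocount of 0.1 and −0.0174 after quantile normalization, and Lpl was 0.0550 on TPM. The Cidec interaction was −0.60 and −0.0635 with pseudocounts of 0.1 and 0.5. Without 1 library, Plin4 between the vehicle tissues ranged from −0.30 to 0.0337. The treatment difference in NP ranged from −0.37 to 0.0664 (Adipoq), −0.61 to 0.14 (Fabp4), −0.00089 to 0.0759 (Lep) and −0.0064 to 0.16 (Lipe). In AF it ranged from −0.13 to 0.42 (Adipoq), −0.15 to 0.44 (Plin1), −0.0331 to 0.42 (Plin4), −0.12 to 0.34 (Fabp4), −0.0238 to 0.60 (Cfd), −0.35 to 0.10 (Lep), −0.10 to 0.63 (Cidec), −0.10 to 0.17 (Pparg) and −0.25 to 0.23 (Lpl). The interaction ranged from −0.0109 to 0.55 (Adipoq), −0.45 to 0.21 (Plin1), −0.0250 to 0.73 (Fabp4), −0.78 to 0.0354 (Cfd), −0.40 to 0.0565 (Lep), −0.35 to 0.38 (Cidec) and −0.0562 to 0.42 (Lpl). Depth limits Lep, Cidec, Plin1, Cfd and Adipoq in NP, with medians of about 1, 6, 10, 16 and 28 fragments under vehicle.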
